A study of Mus musculus with 7 samples.

Results

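MHC class II antigen presentation was examined in the mouse retina through 7 genes: *Cd74*, which encodes the invariant chain; the chain genes *H2-Aa*, *H2-Ab1* and *H2-Eb1*; *H2-DMa* and *H2-DMb1*, which encode the peptide exchange factor H2-DM; and *Ciita*, which encodes the class II transactivator. The genes were chosen by symbol, as the class II chains, the invariant chain, the loading genes and the transactivator, and all 7 were found among the 52550 genes of the count table. Each of the 7 was among the 20128 genes that passed the filter on low counts. None of them passed the test between genotypes, while of all genes tested 7.47% were called higher in SCA7 and 7.91% lower, and 10 of 10 genes of MHC class I presentation rose in the same libraries.

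Total RNA was sequenced from retinas of 12.5-week-old mice on a C57BL/6J background, 4 WT and 3 SCA7. The SCA7 mice carry a knock-in *Atxn7* allele with a CAG expansion in exon 1, here called 140Q, under its own promoter and in every cell. They are homozygous, so mutant ATXN7 is the only form present, and the retinas come from a stage at which photoreceptor function is already reduced. Each library holds both retinas of 1 mouse, no treatment was given, and the sex of each mouse is not in the labels. Libraries held 56497675 to 96635832 counts, so that 1 count was worth 0.00972 to 0.0188 CPM, a count scaled to the library total with TMM factors. *Xist*, used as a covariate below, was at 0.0612 to 0.300 CPM over the libraries. The summed level of border macrophage markers was highest in WT replicate 1 and that of lens markers in SCA7 replicate 2, and for the members, values without a library are given where they change a sign or a call.

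MHC class II molecules are pairs of an alpha and a beta chain that show peptides from endosomes to CD4+ T cells. The invariant chain holds the empty pair on its way to the endosome, proteases cut it down to a short peptide called CLIP, and H2-DM exchanges CLIP for other peptides, with H2-O as its inhibitor. CIITA is recruited to class II promoters by factors bound to the conserved X and Y boxes (RFX, CREB and NF-Y), and its own gene is induced by interferon gamma through a route that includes JAK1, JAK2 and IRF1. In the nervous system class II is carried mainly by dendritic cells, by macrophages of vessels and borders and, after activation, by part of the microglia, whereas class I is carried by most cell types. C57BL/6 mice have the b haplotype, which makes no E alpha chain, so that *H2-Eb1* is transcribed there without its partner.

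The letters of the X and Y boxes can be seen in several class II promoters. The stretches below are from RefSeq (GRCm38.p6), 80 bases each, 5′ to 3′ on the strand of the gene. Capitals mark TGATTGG, the core of the Y box, and, where it is found 20 to 32 bases before the Y box, GNAAC, the start of the X1 box.
H2-Aa, chr17:34287854-34287933, minus strand: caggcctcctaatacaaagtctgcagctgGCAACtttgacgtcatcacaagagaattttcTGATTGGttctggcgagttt
H2-Eb1, chr17:34305746-34305825, plus strand: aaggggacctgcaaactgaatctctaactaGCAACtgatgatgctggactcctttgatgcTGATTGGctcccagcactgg
H2-Eb2, chr17:34325513-34325592, plus strand: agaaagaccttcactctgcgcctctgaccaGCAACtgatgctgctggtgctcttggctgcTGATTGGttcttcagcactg
H2-Oa, chr17:34092274-34092353, plus strand: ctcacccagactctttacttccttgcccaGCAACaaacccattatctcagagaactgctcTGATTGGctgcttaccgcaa
H2-Ob, chr17:34238786-34238865, plus strand: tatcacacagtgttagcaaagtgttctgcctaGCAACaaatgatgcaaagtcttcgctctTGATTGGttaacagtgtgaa
H2-DMb2, chr17:34145097-34145176, plus strand: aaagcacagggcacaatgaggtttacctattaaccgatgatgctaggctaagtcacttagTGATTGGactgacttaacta
They were chosen to set the boxes of chain genes beside those of the H2-O genes and of *H2-DMb2*, which lacks the pair. The stretches lie upstream of the RefSeq start, and the last bases of that of *H2-Oa* fall in the first exon of the transcript in the annotation used here. That of *H2-DMb2* lies inside the gene as annotated there, between its exons, and the annotated start of *H2-DMb2* was not searched.

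Of the 12 class II genes considered, 8 had a promoter of 300 bases in the table, from 250 bases before to 50 after the start. TGATTGG, searched on both strands, was in 7 of these 8, against 7.82% of 32851 promoters of 27025 genes. GNAAC 20 to 32 bases before TGATTGG, a pair that contains the first motif and was chosen after these sequences were seen, was in 6 of 8 against 0.35% of all promoters. The 6 were those of *H2-Aa*, *H2-Eb1*, *H2-Eb2*, *H2-DMb1*, *H2-Oa* and *H2-Ob*, with 23 to 26 bases between the end of GNAAC and the start of TGATTGG. *H2-DMb2* had TGATTGG without the pair, and *H2-DMa* had neither in this window. Among class I genes, TGATTGG was in 4 of the 8 with a promoter and the pair in 0 of 8. *H2-Oa*, whose counts did not overlap between the genotypes, and *H2-Aa*, whose counts did, both hold the pair.

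Class II transcripts were scarce in the retina. Levels are compared between genes as RPK, the count of a gene over the size factor of its library and over its median length in kb. The highest mean in WT was that of *H2-DMa*, at 323 ± 46.8 RPK (SD, n = 4), and the next was *H2-Ab1*, at 233 ± 40.4 RPK. *Cd74* followed with 120 ± 78.5 RPK, then *H2-Aa* with 90.4 ± 46.4, *H2-Eb1* with 76.0 ± 33.9, *H2-DMb1* with 51.9 ± 16.4 and *Ciita* with 2.44 ± 0.782. These levels lay between percentile 0.324 (*Ciita*) and percentile 34.2 (*H2-DMa*) of the 15422 protein-coding genes tested, whose median was 826 RPK. From *H2-Ab1* down to *H2-DMb1* the ranges over the 4 WT libraries overlapped between neighbours. The lowest WT library for *H2-DMa* (277 RPK) was just above the highest for *H2-Ab1* (276 RPK), and *Ciita* lay below the range of every other member. The order depends on the length used: per length of the union of exons, *Cd74* had 87.1 RPK against 68.0 for *H2-DMa* and 66.2 for *H2-Ab1*.

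*Cd74* encodes the invariant chain, which also acts as a surface receptor for MIF. Its gene lies on chromosome 18 (ENSMUSG00000024610; GRCm38, 60803848 to 60812652). It had 4.07, 1.23, 2.19 and 0.994 CPM in WT replicates 1 to 4, and 1.48, 2.32 and 1.06 CPM in SCA7 replicates 1 to 3. The groups overlapped: the highest value was WT replicate 1, the lowest WT replicate 4, and SCA7 replicate 2 stood above 3 of the 4 WT libraries. The log2 fold change was -0.38 (SE 0.55, 95% interval -1.72 to 0.96; edgeR, adjusted p = 0.658). The interval spans a fold change of 0.303 to 1.95. The sign rests on 1 library, since without WT replicate 1 the log2 fold change was 0.15 (edgeR, adjusted p = 0.798).

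*H2-Aa*, the alpha chain of the A molecule (ENSMUSG00000036594; chromosome 17, 34282744 to 34287823), had 2.14, 0.727, 1.46 and 0.795 CPM in the WT libraries. In SCA7 it had 0.748, 1.15 and 0.739 CPM, all within the WT range. Its log2 fold change was -0.52 (SE 0.38, 95% interval -1.37 to 0.32; edgeR, adjusted p = 0.336). *H2-Eb1*, the beta chain of the E molecule (ENSMUSG00000060586; chromosome 17, 34305867 to 34316674), had a like pattern over the libraries. It had 1.91, 0.797, 1.28 and 0.780 CPM in WT and 0.650, 1.24 and 0.671 CPM in SCA7. WT replicate 1 was again the highest library and SCA7 replicate 2 the highest of its group, and the log2 fold change was -0.46 (SE 0.35, 95% interval -1.24 to 0.33; edgeR, adjusted p = 0.366).

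*H2-Ab1*, the beta chain of the A molecule (ENSMUSG00000073421; chromosome 17, 34257689 to 34269419), was the member nearest to the threshold. It had 2.92, 2.43, 2.61 and 1.90 CPM in WT and 1.69, 2.098 and 1.66 CPM in SCA7. Of the SCA7 libraries, 1 lay above the lowest WT library, so the groups overlapped by that pair of values. The log2 fold change was -0.44 (SE 0.16, 95% interval -0.79 to -0.08), with an unadjusted p of 0.0202 and an adjusted p of 0.0649 by edgeR's quasi-likelihood test. It was called lower in SCA7 without WT replicate 4, at -0.54 (edgeR, adjusted p = 0.0173), and without WT replicate 1 it was -0.34 (edgeR, adjusted p = 0.164).

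The H2-DM genes differed little between the genotypes. *H2-DMa* (ENSMUSG00000037649; chromosome 17, 34119541 to 34139101) had 2.92, 3.37, 4.09 and 3.21 CPM in WT and 2.99, 3.05 and 3.18 CPM in SCA7. Its 3 SCA7 values lay within 0.2 CPM of each other and inside the WT range, with a log2 fold change of -0.14 (SE 0.13, 95% interval -0.42 to 0.14; edgeR, adjusted p = 0.445). Its exons share 360 bases with those of *Brd2* on the opposite strand, a gene with 8653 to 21066 counts, and the strand setting of the counting is not given in the sources used here. *H2-DMb1* (ENSMUSG00000079547; chromosome 17, 34153072 to 34160230) had 0.752, 0.364, 0.506 and 0.459 CPM in WT and 0.536, 0.656 and 0.505 CPM in SCA7. It was the 1 member with a higher mean in the fit for SCA7, by a log2 fold change of 0.13 (SE 0.25, 95% interval -0.42 to 0.68; edgeR, adjusted p = 0.732), and the sign turned to -0.02 without WT replicate 2. It is uncertain for another reason: 22.7% of its windows of 50 bases, the read length, also occur in its copy *H2-DMb2*.

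*Ciita*, the switch on which the others depend (ENSMUSG00000022504; chromosome 16, 10480059 to 10528418), was close to the limit of detection. It had 7, 14, 5 and 9 counts in WT and 10, 17 and 7 counts in SCA7. The groups overlapped almost entirely, and the log2 fold change was -0.01 (SE 0.42, 95% interval -0.92 to 0.90; edgeR, adjusted p = 0.989). With 1 library left out it ran from -0.38 (without SCA7 replicate 2) to 0.38 (without SCA7 replicate 3), and without WT replicate 2 the gene did not pass the filter. The SE is worked out from the fold change and the test statistic, which is unstable for a fold change near 0. With DESeq2 size factors it was 0.60, so the interval is approximate. A change of the size seen for its class I counterpart *Nlrc5*, described below, lies outside this interval, but a change of up to 1.87-fold does not. Exons of *Dexi* on the opposite strand share 329 bases with it and *Dexi* had 944 to 1676 counts.

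**Figure D1:**
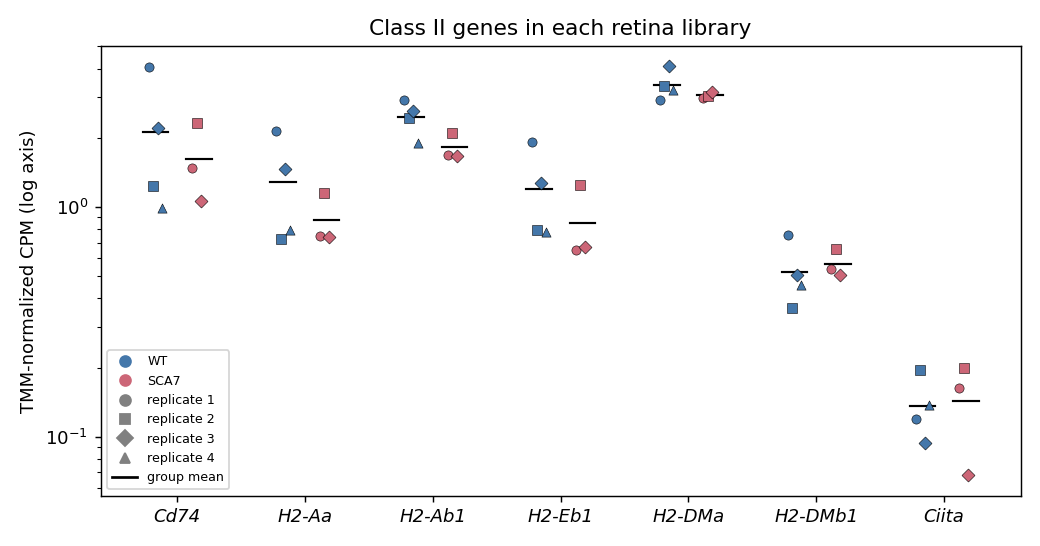
TMM-normalized CPM (log axis) of the 7 class II genes in each library, with WT in blue, SCA7 in red, 1 symbol per replicate number and a bar at the group mean. The groups overlap for every gene, and WT replicate 1 (circle) is the highest library for *Cd74*, *H2-Aa*, *H2-Ab1*, *H2-Eb1* and *H2-DMb1*.

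Over the members, 0 of 7 were called higher in SCA7 and 0 of 7 lower at an adjusted p under 0.05 and a fold change above 1.3 or under 0.7. Of all 20128 genes tested, 7.47% were called higher and 7.91% lower by the same rule. An unadjusted p under 0.05 was reached by 1 of 7 members, against 39.7% of all genes, and 0 of 7 had groups that did not overlap, against 37.5% of all genes. The DESeq2 and limma-voom fits likewise called 0 members and gave 1 an unadjusted p under 0.05, while without WT replicate 4 edgeR called 1 member lower, *H2-Ab1*. The median log2 fold change of the members was -0.38, against -0.02 over all genes. It ran from -0.55 (without SCA7 replicate 2) to -0.13 (without WT replicate 1) when a library was left out, and was -0.17 without SCA7 replicate 3. The intervals leave room for changes: the upper bound of the fold change was 0.945 for *H2-Ab1*, 1.10 for *H2-DMa*, 1.25 for *H2-Aa* and for *H2-Eb1*, and between 1.61 and 1.95 for *H2-DMb1*, *Ciita* and *Cd74*. The bound for *Ciita* is approximate, for the reason given above.

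The members were correlated with each other to unlike degrees, and differences between the correlations were not tested. Over the 7 libraries, which share their scaling and genotypes, Pearson's r of log2 CPM was 0.94 for *Cd74* with *H2-Aa*, 0.93 for *Cd74* with *H2-Eb1* and 0.97 for *H2-Aa* with *H2-Eb1*. *H2-DMb1* (0.81 with *Cd74*) and *H2-Ab1* (0.74 with *Cd74*) followed these 3 genes less closely. By contrast, r was -0.11 between *Cd74* and *H2-DMa*, 0.05 between *Cd74* and *Ciita*, and -0.46 between the partners *H2-DMa* and *H2-DMb1*. With the members left out, among the 14715 genes that averaged 1 CPM or more, the 5 with the pattern most like *Cd74* were *Dis3l2* (r = 0.968), *Ccl25* (0.968), *Gemin6* (0.965), *Tmem134* (0.958) and *Tfdp2* (0.937). With 7 libraries and that many genes, values of this size are a description only.

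The remaining class II genes were at 0 to 7.78 RPK in WT, below all members but *Ciita*. *H2-Oa*, the alpha chain of the H2-DM inhibitor H2-O, had 4, 2, 2 and 1 counts in WT and 11, 16 and 13 counts in SCA7. All 3 SCA7 libraries were above all 4 WT libraries, but the gene was below the count filter and was not tested in the fit used throughout. In the fits without that filter its log2 fold change was 2.13 (edgeR, adjusted p = 0.00335) and 2.17 (DESeq2, adjusted p = 0.0183), from at most 16 counts in a library. *H2-Ob*, the beta chain of H2-O, had 10, 7, 13 and 10 counts in WT and 11, 22 and 34 in SCA7. The groups overlapped and the log2 fold change was 0.69 (SE 0.35; edgeR, adjusted p = 0.165). *H2-DMb2* had 6 to 14 counts in WT and 6 to 18 in SCA7 (log2 fold change -0.21; edgeR, adjusted p = 0.760; 0.02 without SCA7 replicate 3). *H2-Eb2* had at most 4 counts in any library although its promoter holds both boxes, and *H2-Ea-ps*, the E alpha gene that is defective in this strain, had 0 counts in all 7 libraries.

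The factors that bind class II promoters were expressed at higher levels than the members, with means of 516 to 7101 RPK in WT, and none was called, although 3 were called higher with library totals in place of TMM factors. *Rfx5*, *Rfxap* and *Rfxank* encode the RFX complex at the X box, *Nfya*, *Nfyb* and *Nfyc* encode NF-Y at the Y box, and *Creb1* encodes a factor of the X2 box. All 7 had a higher fitted mean in SCA7, and in 4 of 7 the groups did not overlap, against 37.5% of all genes. For *Nfyc* (0.02) the sign turned without WT replicate 1 or 3 or SCA7 replicate 2 or 3 (-0.02 to -0.0018). The median log2 fold change of the 7 was 0.17. *Nfyb* had 45.4, 47.5, 51.3 and 45.6 CPM in WT and 59.3, 54.3 and 59.7 CPM in SCA7. This was a log2 fold change of 0.28 (SE 0.06; edgeR, adjusted p = 0.00586), under the fold change of 1.3 that a call needed. *Creb1* was at 143 to 151 CPM in WT and 144 to 156 CPM in SCA7 (log2 fold change 0.04; edgeR, adjusted p = 0.675).

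On the route from interferon gamma to *Ciita*, *Irf1* rose. This gene, which encodes a factor that binds an interferon-responsive promoter of *Ciita*, had 7.29, 8.01, 6.79 and 5.61 CPM in WT and 11.7, 11.2 and 9.05 CPM in SCA7, without overlap. Its log2 fold change was 0.62 (SE 0.13; edgeR, adjusted p = 0.00315). The kinase *Jak2* was higher in all 3 SCA7 libraries but by a log2 fold change of 0.21 (edgeR, adjusted p = 0.0232), too small for a call except with library totals (0.40), while *Jak1* (0.02, and -0.01 without WT replicate 1) and the receptor gene *Ifngr1* (0.07) had adjusted p-values of 0.865 and 0.322 by edgeR. *Ifng* itself, named after its values were seen, had 1 count in 1 WT library and 1 count in 1 SCA7 library. *Ciita* thus stood at 5 to 14 counts in WT and 7 to 17 in SCA7 in libraries in which *Irf1* differed between the genotypes.

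Of the endosomal proteases, reductase and protease inhibitor that act on the invariant chain and antigens, 3 of 8 rose and 0 fell, against 7.47% and 7.91% of all genes. With library totals in place of TMM factors, 5 of 8 were called higher. The largest difference was in *Ctss*, encoding cathepsin S, which makes the last cuts of the invariant chain. It had 17.3, 15.1, 17.9 and 16.1 CPM in WT and 41.1, 45.3 and 40.7 CPM in SCA7, a log2 fold change of 1.35 (SE 0.07; edgeR, adjusted p = 1.8e-07). No SCA7 library came near the WT range. *Lgmn*, encoding the asparaginyl endopeptidase legumain, rose by 0.44 (SE 0.08; edgeR, adjusted p = 0.00141) and *Ctsh*, encoding cathepsin H, by 0.42 (SE 0.10; edgeR, adjusted p = 0.0102). Both are near the fold change limit: *Lgmn* was not called without SCA7 replicate 1 (0.38), nor *Ctsh* without WT replicate 2 (0.36) or WT replicate 4 (0.35). *Cst3*, encoding the cathepsin inhibitor cystatin C, had a log2 fold change of -0.14 (SE 0.09; edgeR, adjusted p = 0.302). In the same libraries the substrate gene *Cd74* had the wide spread given above.

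Among genes of class II turnover and costimulation, 1 of 7 tested rose and 1 fell, against 7.47% and 7.91% of all genes. *Cd86*, a ligand of CD28 on T cells, had 12, 27, 19 and 26 counts in WT and 56, 63 and 54 counts in SCA7. It rose by 1.08 on the log2 scale (SE 0.27; edgeR, adjusted p = 0.0101), and by 0.90 without a call when SCA7 replicate 1 was left out (edgeR, adjusted p = 0.0556). *Cd40*, a receptor by which T cells activate presenting cells, had 53, 35, 26 and 33 counts in WT and 19, 30 and 34 in SCA7, which after scaling left no overlap. It fell by 0.84 (SE 0.27; edgeR, adjusted p = 0.0349), and WT replicate 1 was the highest library here too. Without that library *Cd40* was not called (-0.57; edgeR, adjusted p = 0.0737), nor without SCA7 replicate 1, 2 or 3 (-0.88 to -0.80; edgeR, adjusted p = 0.0815 to 0.108). *March1*, encoding the ligase that removes class II from the surface, was at 111 to 141 CPM in WT and 111 to 120 CPM in SCA7 (log2 fold change -0.14; edgeR, adjusted p = 0.214).

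Of the genes of the MIF receptor of which the CD74 protein is a part, *Cd44*, its signalling partner, rose. It had 8.66, 9.68, 9.43 and 9.28 CPM in WT and 25.4, 18.3 and 18.9 CPM in SCA7, a log2 fold change of 1.17 (SE 0.11; edgeR, adjusted p = 9.4e-06). *Mif*, the ligand, was at 112 to 128 CPM in WT and 119 to 128 CPM in SCA7 (log2 fold change 0.03, and -0.0081 without WT replicate 1; edgeR, adjusted p = 0.797). *Cxcr4* fell by 0.52 (SE 0.17; edgeR, adjusted p = 0.0432), with groups that overlapped and a fold change of 0.699 at the limit for a call, and it was not called without WT replicate 1, 2 or 3 or SCA7 replicate 1 or 3 (edgeR, adjusted p = 0.0574 to 0.175). *Cd44* is made by many cell types, and its values do not say in which cells it rose.

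MHC class I presentation differed between the genotypes in the same libraries. All 10 genes of this list rose and in all 10 the groups did not overlap, against 7.47% of all genes called higher and 37.5% without overlap. The median log2 fold change was 0.97. *H2-K1*, a classical class I chain, had 29.8, 28.8, 35.2 and 27.6 CPM in WT and 86.1, 78.1 and 78.6 CPM in SCA7. *B2m*, the light chain of class I, rose by 1.301 (SE 0.08; edgeR, adjusted p = 6.2e-07) and *H2-K1* by 1.41 (SE 0.08; edgeR, adjusted p = 2.6e-07). *Nlrc5*, the class I counterpart of *Ciita*, had 49, 54, 21 and 36 counts in WT and 169, 203 and 223 in SCA7, a log2 fold change of 1.92 (SE 0.21; edgeR, adjusted p = 4e-05). After scaling, *Nlrc5* was at 0.394 to 0.837 CPM in WT and 2.17 to 2.75 CPM in SCA7. The peptide transporter genes *Tap1* and *Tap2* rose by 0.94 and 1.00, and the immunoproteasome genes *Psmb8*, *Psmb9* and *Psmb10* by 1.09, 0.84 and 0.57. Without SCA7 replicate 1, *Psmb9* was not called (0.78; edgeR, adjusted p = 0.0582). The genes of this list were set with an earlier result known, that immune genes as a group were higher in these SCA7 libraries, so its direction is no independent evidence.

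**Figure D2:**
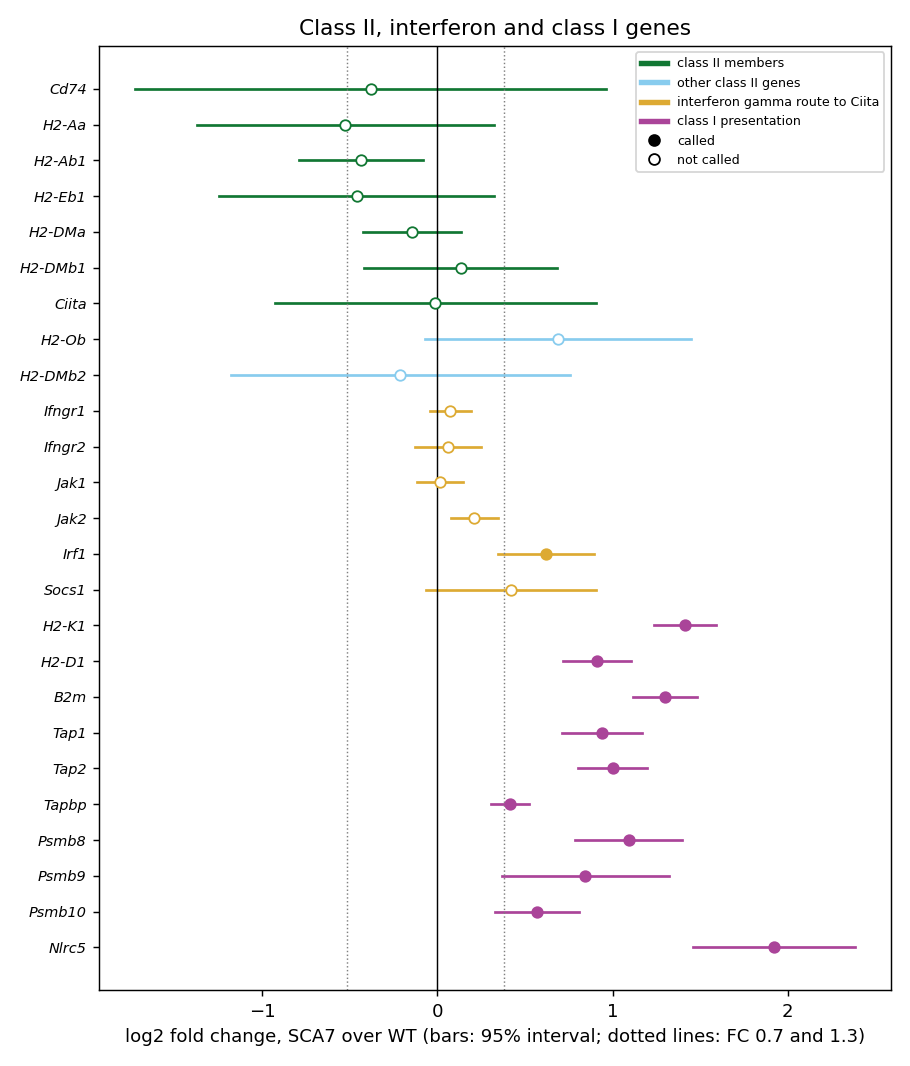
Log2 fold change (SCA7 over WT, bars are 95% intervals) of tested genes of 4 groups, with filled points for called genes and dotted lines at fold changes of 0.7 and 1.3. The 7 class II members are open and lie at or left of 0.13, *Irf1* is filled, and all 10 class I genes are filled and lie right of the upper dotted line.

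A ratio of counts within a library needs no scaling between libraries, and 4 such ratios set class II genes against class I or myeloid genes. The log2 ratio of *H2-Ab1* to *H2-K1* was -3.35, -3.56, -3.75 and -3.86 in WT and -5.66, -5.21 and -5.56 in SCA7, a difference of -1.85 without overlap. That of *Ciita* to *Nlrc5* was -2.72, -1.91, -1.97 and -1.94 in WT and -4.01, -3.54 and -4.90 in SCA7, a difference of -2.01 without overlap. Each had an exact two-sided permutation p of 0.0286, the smallest that 35 splits of 7 libraries can give, and 0.0571 after adjustment over the 4 ratios, so neither passed 0.05. Under the other common definition of a two-sided p, the one-sided p doubled, each was 0.0571 before adjustment, and the definition printed first was adopted after those values had been seen. That of *Cd74* to *B2m* was -2.81, -4.76, -3.95 and -4.83 in WT and -5.81, -5.06 and -6.03 in SCA7 (difference -1.54, no overlap; exact permutation p = 0.0857, adjusted 0.114). Of the genes in these 3 ratios the class I genes had passed the test and the class II genes had not. The class I genes were set below the class II genes with the earlier result on immune genes known.

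Against *Csf1r*, a receptor gene of microglia and macrophages, *Cd74* was at a log2 ratio of -1.70, -3.35, -2.46 and -3.60 in WT and -3.92, -3.30 and -4.25 in SCA7. The difference was -1.05 and the groups overlapped (exact permutation p = 0.171, adjusted 0.171). *Csf1r* itself rose by 0.81 in the edgeR fit (adjusted p = 6.3e-06).

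**Figure D3:**
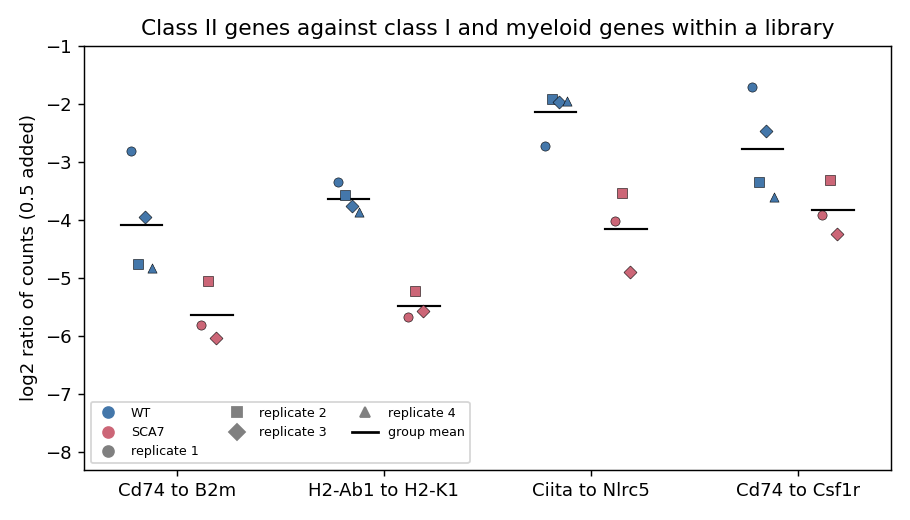
Log2 ratio of counts within each library (0.5 counts added to each) for 4 pairs of genes, with WT in blue, SCA7 in red, 1 symbol per replicate number and bars at group means. SCA7 libraries lie below all WT libraries for the 3 ratios to a class I gene, and overlap with them for *Cd74* to *Csf1r*.

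On chromosome 17 the class II genes are interleaved with class I genes. The interval from *H2-Ob* to *H2-Ea-ps* with 100 kb on each side (GRCm38, 34138903 to 34444645) holds 21 annotated genes, of which 13 were tested. There 4 rose and 0 fell, against 7.47% and 7.91% of all genes. The 4 were *Psmb9*, *Tap1*, *Psmb8* and *Tap2*, which stand next to each other between the H2-DM genes and *H2-Ob*. All 4 are in the class I list above, so their calls are the same result. *H2-DMb1* and *H2-Ob*, on either side of them, were not called. The calls in this interval were thus all within this block, and the difference between the block and the class II genes that flank it was not tested.

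**Figure D4:**
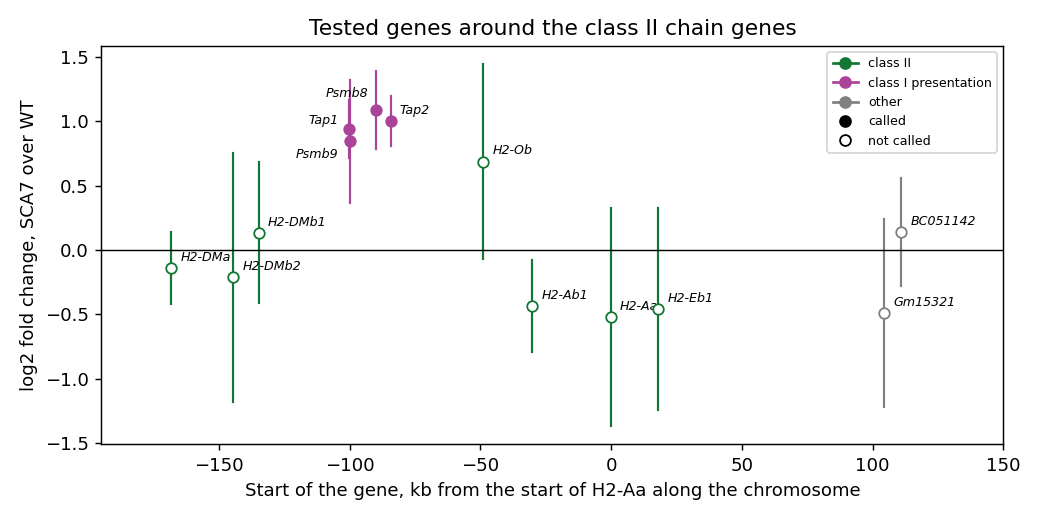
Log2 fold change (SCA7 over WT, bars are 95% intervals) of the 13 tested genes around the class II chain genes, against the distance of each gene's start from the start of *H2-Aa* in kb. The 4 called genes (filled, purple) sit together about 84 to 100 kb before *H2-Aa*, and the class II genes (green) on both sides of them are open.

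Retina libraries can hold several kinds of cell with class II, so lists of marker genes were read beside the members. In bulk RNA, fewer cells of a type and less RNA per cell cannot be told apart. Microglial markers rose in 13 of 13 genes, against 7.47% of all genes. Their summed level was 85.0 to 108 CPM in WT and 183 to 205 CPM in SCA7, with a median log2 fold change of 0.87. No class II member was called beside them. *Itgax*, the gene of the integrin CD11c found on dendritic cells and on activated microglia, rose from 4 to 7 counts in WT to 27 to 80 counts in SCA7 (log2 fold change 2.90; edgeR, adjusted p = 3.2e-05). Of the other dendritic cell genes of the list, *Flt3* had 151 to 340 counts, *Zbtb46* 358 to 700 and *Xcr1* 12 to 23, and none of them was called. *Batf3* had at most 8 counts in any library, *Ccr7* at most 4, and *Cd209a* and *Clec9a* at most 2.

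Of 9 markers of border and infiltrating macrophages, 4 fell and 0 rose, against 7.91% and 7.47% of all genes. The log2 fold changes of the 9 had a median of -0.83. The summed level was 13.3 to 19.7 CPM in WT, highest in replicate 1, and 11.4 to 14.5 CPM in SCA7. *Cd163*, a scavenger receptor of such macrophages, had 50, 21, 13 and 24 counts in WT and 7, 11 and 4 in SCA7 (log2 fold change -2.27; edgeR, adjusted p = 0.00837), and *F13a1*, *Pf4* and *Lyve1* were called as well. *Mrc1*, the mannose receptor, had 116, 41, 31 and 32 counts in WT and 20, 30 and 13 in SCA7 without a call (edgeR, adjusted p = 0.0715). WT replicate 1 was the highest library for *Mrc1*, *Cd163*, *F13a1* and *Pf4* as it was for *Cd74* and the 3 class II chain genes, and SCA7 replicate 2, the highest of its group for *Cd74*, was also the highest of its group for *Mrc1*, *Cd163* and *F13a1*, though not for *Pf4*. Of the other 5 markers, *Lyz2* was also highest of its group in WT replicate 1 and in SCA7 replicate 2, and *Ms4a7* was highest of the WT libraries in replicate 1. *Lyve1* was lowest of the WT libraries there, and *Ccr2* and *Ly6c2* were highest in other WT libraries. *Ms4a7*, *Ccr2*, *Ly6c2* and *Lyz2* had log2 fold changes of 0.11 to 0.90, none of them called. These marker genes were singled out after their values were seen, and their part in the class II values was not tested.

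Other tissue in the libraries also differed. The counts of called genes below stand against 7.47% of all genes called higher and 7.91% called lower. Pigment epithelium markers summed to 62.1 to 126 CPM in WT and 14.8 to 36.2 CPM in SCA7, with *Ttr*, *Rpe65* and *Lrat* called lower and *Slc45a2* called higher among 6, and lens markers ran from 39.2 to 1104 CPM, with SCA7 replicate 2 the highest. Endothelial markers were called higher in 3 of 6 genes, with sums of 140 to 179 CPM in WT and 193 to 249 CPM in SCA7. Most of the sum was *Kdr*, at 91.3 to 132 CPM in WT and 148 to 201 CPM in SCA7. *Cldn5* was lower without overlap but not called (log2 fold change -0.48; edgeR, adjusted p = 0.0109), and *Pecam1* was at -0.01. Red blood cell markers were called lower in 1 of 5 genes, with sums of 54.5 to 76.7 CPM in WT and 30.5 to 61.7 CPM in SCA7, where replicate 2 was the highest. Rod markers fell in 7 of 7 genes, from sums of 24282 to 25611 CPM in WT to 8399 to 10617 CPM in SCA7. Of the lymphocyte genes, *Ighm* and *Cd8a* were called higher in SCA7, while *Cd3e* and *Cd3g* had at most 4 counts and *Cd79a* at most 10. The part of these differences in the class II values was not tested.

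**Figure D5:**
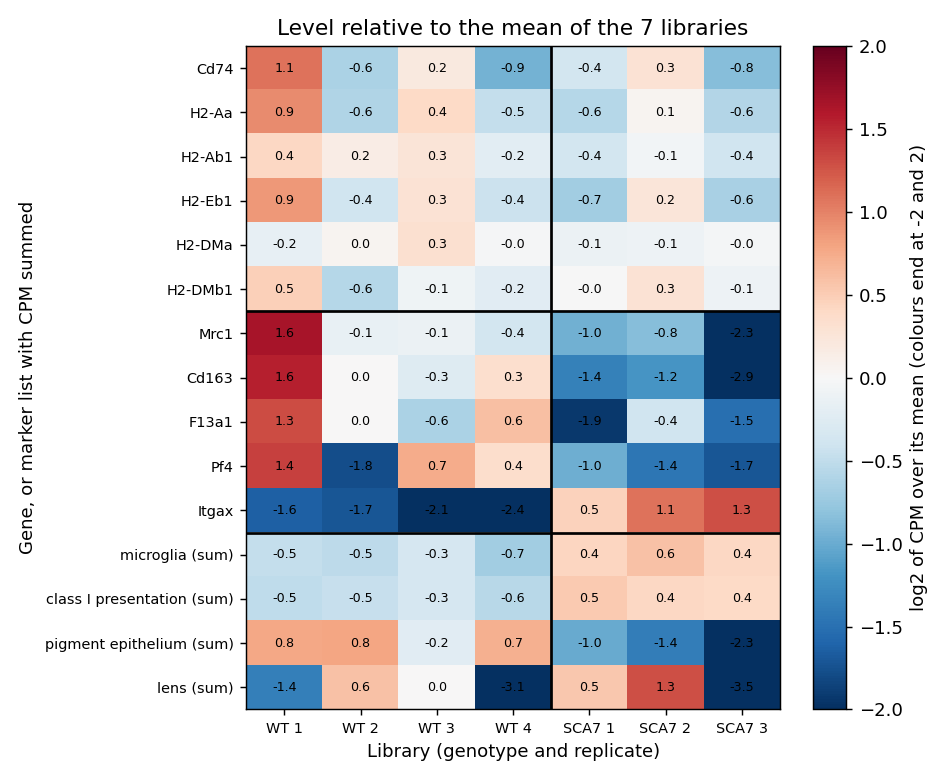
Log2 of CPM over its mean across the 7 libraries for 6 class II genes, 5 genes of macrophages and dendritic cells, and 4 marker lists with summed CPM (columns are libraries, colours end at -2 and 2). The 5 genes were picked from their lists after their values were seen. Of the macrophage markers not shown, *Lyz2* and *Ms4a7* were highest of the WT libraries in replicate 1, and *Lyve1*, *Ccr2* and *Ly6c2* were not. WT replicate 1 is high for *Cd74*, *H2-Aa* and *H2-Eb1* (1.1, 0.9 and 0.9) and for *Mrc1*, *Cd163*, *F13a1* and *Pf4*, while the microglial and class I sums separate the genotypes.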

How the data were processed

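The authors sequenced total RNA depleted of ribosomal RNA from stranded libraries, as single reads of 50 bases. They mapped the reads to mm10 with TopHat2 (2.0.14) and Bowtie2 (2.1.0) and counted them per Ensembl gene (release 90) with HTSeq (0.6.1). The table the authors deposited holds raw counts. The HTSeq strand option is not given in the sources used here. Gene names, positions and transcript lengths came from GENCODE M21 (GRCm38), the same assembly.

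Genotypes were compared with edgeR (4.0.16, quasi-likelihood, TMM, filterByExpr) in R 4.3.3, adjusting for the 20128 genes tested after Benjamini and Hochberg. In counts simulated with known changes of 1 on the log2 scale, the fit called 128 of 138 changed genes at 1 CPM or more. Under 1 CPM, where the means of *Ciita* and *H2-DMb1* lie, it called 15 of 57. A gene was called at an adjusted p under 0.05 with a fold change above 1.3 or under 0.7. Alternatives were DESeq2 (1.42.0), limma-voom (3.58.1), other scalings, filters and thresholds, *Xist* as a covariate, a replicate block and each library left out. Ratios used exact permutation tests (numpy 2.4.6, scipy 1.17.1).

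The members and gene lists were chosen with earlier results of these data known. Outside the members, the text names called genes, the most abundant genes not called of each list, the 5 genes most like *Cd74*, and marker genes picked after their values were seen. Replicates are separate mice. The precision given is the spread between mice, which includes counting error. Promoters of *Cd74*, *H2-Ab1*, *Ciita* and *H2-Ea-ps* were not analysed here. The values of 2 genes of the lists are not reported here.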

Additional observations from a re-analysis of the deposited data

Results flagged for a closer look

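In 6 of 47 groups of 4 WT libraries, the highest or lowest library stood apart from the other 3 by more than Dixon's critical value of 0.829 of the range, where chance gives about 1 in 20 groups. *Cd40* was at 0.905 CPM in WT replicate 1 and 0.488 to 0.505 CPM in the other WT libraries. The log2 ratio of *Ciita* to *Nlrc5* was -2.72 in WT replicate 1 against -1.97 to -1.91. *Jak1* was at 127.9 CPM in WT replicate 1 against 138 to 139 CPM. *Jak2* was at 52.8 CPM in WT replicate 3 against 59.6 to 60.5 CPM, and *Psmb10* was at 17.2 CPM there against 12.2 to 12.5 CPM. *Tap2* was at 10.4 CPM in WT replicate 4 against 9.30 to 9.40 CPM. None of the 7 class II genes had such a library, although WT replicate 1 was the highest for 5 of them. SCA7, with 3 libraries, was not checked in this way.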

How the results depend on the processing

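In the fit described, 0 members were called higher and 0 lower, and of the related pathway genes 17 were called higher and 2 lower. The labels give both genotypes the same replicate numbers, and a further number in the titles that is close within replicates 1 to 3, but do not say what these mark. The deviations of same-numbered libraries from their group means correlated at 0.0067, 0.306 and 0.126, and WT replicate 1 correlated best with SCA7 replicate 2. With the replicate block, 1 member was called lower, *H2-Ab1* (-0.54, adjusted p = 0.00569), and *Ctsh* lost its call (0.36). Without the block, *H2-Ab1* had an adjusted p of 0.0399 but no call when *Xist* was a covariate. *Xist* was at 0.0612 to 0.300 CPM, so this covariate rests on few counts. Each library left out gave 0 to 1 members lower, 0 to 0 higher, 14 to 18 related genes higher and 0 to 2 lower. The 2 related genes called lower became 1 with DESeq2 size factors, the DESeq2 Wald test, limma-voom or no filter, and 0 with library totals or an adjusted p under 0.01. With library totals 24 related genes were called higher. Library totals also moved the median log2 fold change of all genes from -0.02 to 0.17, all calls from 1504 higher and 1592 lower to 3681 and 978, and gave *H2-DMa* 0.05 and *Ciita* 0.18. Without a fold change limit 2853 genes were higher and 2852 lower. Per length of the union of exons, levels in WT were 23.2 RPK for *H2-Aa*, 66.2 for *H2-Ab1*, 68.0 for *H2-DMa*, 21.3 for *H2-DMb1* and 0.99 for *Ciita*. With the one-sided p doubled, *H2-Ab1* to *H2-K1* (-1.85) and *Ciita* to *Nlrc5* (-2.01) had a p of 0.0571. With 1 library left out the log2 ratio differences ran from -1.98 to -1.75 for *H2-Ab1* to *H2-K1*, from -2.32 to -1.64 for *Ciita* to *Nlrc5*, from -1.83 to -1.12 for *Cd74* to *B2m* and from -1.32 to -0.69 for *Cd74* to *Csf1r*, in designs whose smallest p is 0.0667 or 0.1. Causes of these shifts were not tested. With 5 to 17 counts in a library, the interval of *Ciita* was wide. Its SE was 0.42 in the fit described and 0.60 with DESeq2 size factors.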
